A study of Mus musculus with 8 samples.

Results

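The Gadd45 family, with the partner protein gene Gadd45gip1, was followed across the arrays of a knockdown experiment in mouse embryonic stem cells. Its members were taken as every probe, control spots left out, whose gene name was Gadd45a, Gadd45b, Gadd45g or Gadd45gip1, which gave 5 probes of 4 genes among 39429 probes and 22435 genes tested. R1 mouse embryonic stem cells were transfected with an siRNA against CnAb1 or with a Control siRNA, differentiated in embryoid bodies for 48 h, and their total RNA was measured 48 h after transfection. CnAb1 (CnAβ1) is the splice variant of the calcineurin catalytic subunit Aβ, encoded by Ppp3cb, that lacks the autoinhibitory domain of the conventional enzyme. The 3 groups were siRNA 1 against CnAb1 (3 arrays), siRNA 2 against CnAb1 (2 arrays) and Control siRNA (3 arrays), and the line, the transfection and the differentiation were common to all 3. The sources used here give neither the siRNA sequences nor whether replicates were separate cultures. The family was proposed with the higher level of Gadd45g in the siRNA arrays already known, so each member's difference from Control is given as a description with no test.

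The Gadd45 proteins are small, acidic nuclear proteins with no enzymatic activity of their own, and they act by binding others. They bind and activate the kinase MEKK4 (Map3k4) upstream of p38 and JNK, bind PCNA and p21, inhibit the complex of CDK1 with cyclin B1, and have been linked to active DNA demethylation. Gadd45a is a classical p53 target, Gadd45b is induced by NF-κB and TGF-β, and Gadd45g is induced by cytokines and, in vertebrate embryos, is expressed in early neural and other differentiating cells. Gadd45gip1 (also known as CRIF1) was found as a Gadd45-binding nuclear protein and is a component of the large subunit of the mitochondrial ribosome.

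The promoters of the 3 Gadd45 paralogs are shown because only 1 of the paralogs stood apart from Control on every siRNA array, so a reader can set their upstream sequences side by side. Each is the 250 bases before the annotated start in RefSeq, build GRCm38.p6, read on the strand of the gene. Capitals mark the octamer ATTTGCAT (or ATGCAAAT on the other strand), the CCAAT box, the TATAAA box and the E-box CACGTG, which were searched on both strands.
Gadd45g, chr13:51846425-51846674, plus strand: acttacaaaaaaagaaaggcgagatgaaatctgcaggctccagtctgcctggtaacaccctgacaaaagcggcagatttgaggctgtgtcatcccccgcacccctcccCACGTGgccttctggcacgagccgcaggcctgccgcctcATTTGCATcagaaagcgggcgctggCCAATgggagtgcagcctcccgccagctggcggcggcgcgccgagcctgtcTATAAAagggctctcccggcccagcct
Gadd45a, chr6:67037408-67037657, minus strand: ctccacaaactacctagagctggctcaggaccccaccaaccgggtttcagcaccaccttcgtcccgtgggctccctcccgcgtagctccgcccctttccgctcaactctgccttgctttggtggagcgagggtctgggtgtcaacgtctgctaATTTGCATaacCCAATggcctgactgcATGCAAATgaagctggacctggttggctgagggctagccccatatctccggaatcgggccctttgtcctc
Gadd45b, chr10:80929841-80930090, plus strand: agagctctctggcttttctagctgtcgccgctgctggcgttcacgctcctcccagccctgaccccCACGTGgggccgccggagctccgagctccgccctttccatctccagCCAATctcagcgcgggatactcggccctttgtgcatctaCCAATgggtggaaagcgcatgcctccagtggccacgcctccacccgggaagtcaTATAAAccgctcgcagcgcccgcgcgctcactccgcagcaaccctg

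The Gadd45g window held an E-box at 142 to 137 bases before the start, the octamer at 103 to 96, a CCAAT box at 78 to 74 and a TATAAA box at 27 to 22. The Gadd45a window held the octamer on both strands, at 97 to 90 and at 70 to 63 bases, with a CCAAT box between them at 86 to 82, and no TATAAA or CACGTG. The Gadd45b window held an E-box at 185 to 180, CCAAT boxes at 139 to 135 and 100 to 96, and a TATAAA box at 46 to 41, with no octamer. Of 32851 mouse promoter windows of this length, 1.60% held the octamer, 33.8% CCAAT, 12.4% TATAAA and 6.02% CACGTG, and 0.767% held both the octamer and CCAAT. The 4 motifs do not overlap one another in these windows. G and C made up 62% of the Gadd45g window, 59.2% of that of Gadd45a and 65.2% of that of Gadd45b.

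Each array carried 43020 spots other than controls, of which 68.0% to 75.1% were well above background, and the arrays had 75th percentiles of processed signal from 838 to 1031. Levels below are log2 of the processed signal relative to that percentile on the same array, so a value of 1 is a signal 2 times the percentile. All 5 family probes were well above background on all 8 arrays and 0 of their spots were saturated. The arrays lay on 3 slides. Replicate 1 of each group was on slide 1, siRNA 1 replicate 3 and Control replicate 2 were on slide 2, and replicate 2 of siRNA 1, replicate 2 of siRNA 2 and Control replicate 3 were on slide 3. On every slide Control was at position 1 and siRNA 1 at position 2. Slide 2 held no siRNA 2 array, and on slides 1 and 3 siRNA 2 was at position 3. Position and group therefore cannot be told apart. The array's probe for Ppp3cb, which is not known to read CnAβ1, spanned 0.18 to 0.61 with siRNA 1, 0.42 to 0.62 with siRNA 2 and 0.52 to 0.75 in Control. The 6 pluripotency markers and the 4 epiblast markers examined were well above background on all 8 arrays.

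Gadd45g gave the family's clearest difference: all 5 siRNA arrays lay above all 3 Control arrays. Its processed signal (probe A_51_P315904) was 5020, 4416 and 4956 with siRNA 1, 5232 and 4335 with siRNA 2, and 3258, 3017 and 3630 in Control. Relative to the 75th percentile, its log2 level was 2.54, 2.40 and 2.43 with siRNA 1, 2.51 and 2.36 with siRNA 2, and 1.82, 1.84 and 1.82 in Control. The 3 Control arrays were nearly equal, while the siRNA arrays spread over a wider range without reaching down to them. Group means were 2.46 ± 0.08 (SD, n = 3) with siRNA 1, 2.43 ± 0.11 (SD, n = 2) with siRNA 2 and 1.82 ± 0.01 (SD, n = 3) in Control. The log2 difference from Control was 0.63 ± 0.082 (SE) with siRNA 1, 0.61 ± 0.091 with siRNA 2 and 0.62 ± 0.074 for the mean of both, or 1.54-fold. Over all genes, 2.43% had every siRNA array above every Control array, 5.4% had every siRNA 1 array and 8.74% had every siRNA 2 array above Control, and because this separation was known when Gadd45g was chosen nothing is read from it. In bulk RNA, a change in how many cells express a gene and a change in RNA per cell cannot be told apart.

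**Figure D1:**
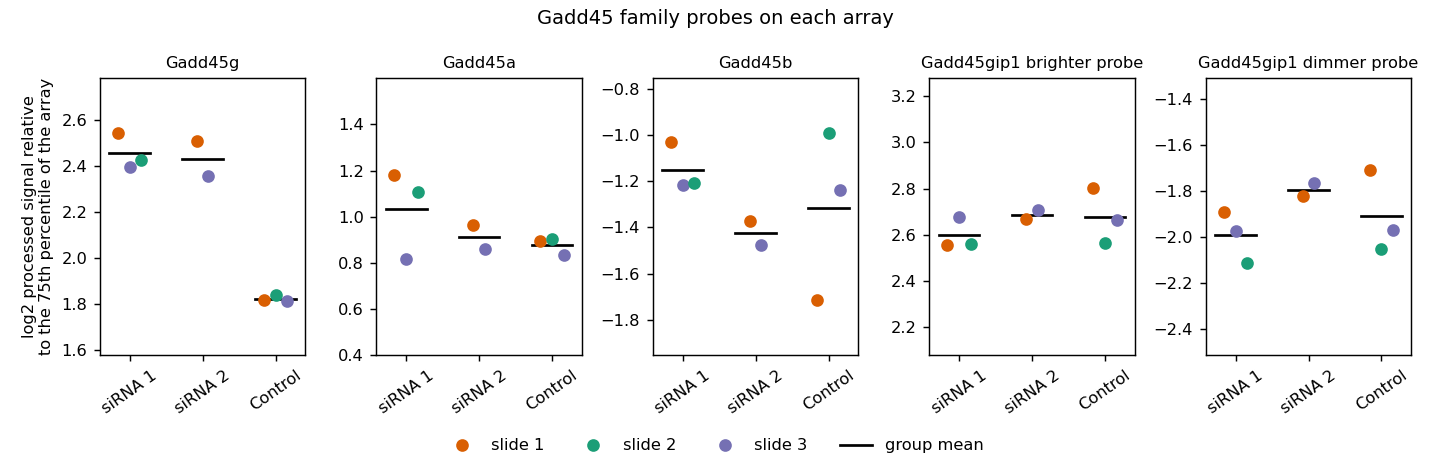
Log2 processed signal relative to the 75th percentile of each array (y axis) for the 5 family probes in siRNA 1 (n = 3), siRNA 2 (n = 2) and Control (n = 3), with points coloured by slide and bars at group means. The Gadd45g points of all 5 siRNA arrays lie between 2.36 and 2.54, above the Control points at 1.82 to 1.84, while for the other 4 probes the siRNA points overlap those of Control. Each panel has its own y range of equal height.

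Gadd45a, the p53-responsive paralog, did not separate the siRNA groups from Control. Its processed signal (probe A_51_P296608) was 1951, 1478 and 1982 with siRNA 1, 1792 and 1535 with siRNA 2, and 1716, 1576 and 1835 in Control. The log2 levels were 1.18, 0.82 and 1.11 with siRNA 1, 0.96 and 0.86 with siRNA 2, and 0.89, 0.90 and 0.83 in Control. Replicates 1 and 3 of siRNA 1 and replicate 1 of siRNA 2 were above every Control array, and the others were within or below the Control range. The log2 difference from Control was 0.16 ± 0.110 (SE) with siRNA 1 and 0.04 ± 0.123 with siRNA 2, on group means of 1.04 ± 0.19 (SD, n = 3) with siRNA 1, 0.91 ± 0.08 (n = 2) with siRNA 2 and 0.88 ± 0.04 (n = 3) in Control. For both siRNAs the difference was 0.10, with a 95% interval of -0.14 to 0.33.

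Gadd45b, the paralog induced by NF-κB and TGF-β, had its widest spread in Control. Its processed signal (probe A_52_P1197913) was 422, 361 and 399 with siRNA 1, 355 and 304 with siRNA 2, and 282, 424 and 438 in Control. The log2 levels were -1.03, -1.21 and -1.21 with siRNA 1, -1.37 and -1.48 with siRNA 2, and -1.72, -0.99 and -1.24 in Control. Control replicate 1 gave the lowest and Control replicate 2 the highest value of all 8 arrays, so the Control range enclosed every siRNA array. The difference from Control was 0.16 ± 0.181 (SE) with siRNA 1 and -0.11 ± 0.202 with siRNA 2, on group means of -1.15 ± 0.11 (SD, n = 3) with siRNA 1, -1.42 ± 0.07 (n = 2) with siRNA 2 and -1.31 ± 0.37 (n = 3) in Control. For both siRNAs it was 0.03, with a 95% interval of -0.36 to 0.41. The sign of this value depended on single arrays: it was -0.17 without Control replicate 1, 0.19 without Control replicate 2 and -0.23 without the arrays of slide 1.

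The pooled SD within groups was 0.245 for Gadd45b, against 0.128 for Gadd45a, 0.0873 for Gadd45gip1 and 0.0698 for Gadd45g. The value for Gadd45b came mostly from Control: with siRNA 1 Gadd45a was more spread than Gadd45b, and with siRNA 2 both Gadd45g and Gadd45a were. The spot was 6.99 to 10.2 times its local background for Gadd45b, 27.3 to 40.7 times for Gadd45a and 62.3 to 94.9 times for Gadd45g. The scanner's own error estimate was about 10% of the signal for each of these probes on every array.

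Gadd45gip1, the mitochondrial ribosome component that binds Gadd45 proteins, was read by 2 probes, and the groups overlapped in both against Control. The brighter probe (A_55_P2150633) gave processed signals of 5056, 5357 and 5436 with siRNA 1, 5832 and 5540 with siRNA 2, and 6443, 4990 and 6539 in Control. Its log2 levels were 2.55, 2.68 and 2.56 with siRNA 1, 2.67 and 2.71 with siRNA 2, and 2.80, 2.57 and 2.67 in Control. Every siRNA 2 value and 1 of the 3 siRNA 1 values lay inside the Control range, and replicates 1 and 3 of siRNA 1 lay just below it. The difference from Control was -0.08 ± 0.089 (SE) with siRNA 1 and 0.01 ± 0.100 with siRNA 2, on group means of 2.60 ± 0.07 (SD, n = 3) with siRNA 1, 2.69 ± 0.03 (n = 2) with siRNA 2 and 2.68 ± 0.12 (n = 3) in Control.

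The dimmer Gadd45gip1 probe (A_52_P85020), whose spot was 5.10 to 7.87 times its background, gave -1.89, -1.97 and -2.11 with siRNA 1, -1.82 and -1.77 with siRNA 2, and -1.71, -2.05 and -1.97 in Control. Its SD in Control was 0.18, against 0.37 for Gadd45b, whose spot was further above background. Any part of signal strength in these spreads was not tested. The dimmer probe's differences from Control were -0.08 with siRNA 1 and 0.12 with siRNA 2. Both siRNA 2 arrays were inside the Control range, and siRNA 1 replicate 3 was below it. The Pearson r between the probes was 0.78 over the 8 arrays, which share their scaling.

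Each siRNA array was then set against the Control array of its own slide, since slide 1 stood apart from the others. Over all genes, 5.93% (1331 of 22435) passed limma's adjusted p under 0.05 for slide 1 against the other slides within groups, and 151 of them were higher on slide 1. For Gadd45g the difference within slides was 0.73 on slide 1, 0.59 on slide 2 and 0.58 on slide 3 with siRNA 1, and 0.69 on slide 1 and 0.54 on slide 3 with siRNA 2. All 5 were above 0, which follows from every siRNA array lying above every Control array, and the pair from slide 1 were the largest. On slides 1 and 3 both siRNAs were set against the same Control array, so the 5 are not separate checks. Without the arrays of slide 1 the difference of Gadd45g for both siRNAs was 0.56. Of all genes, 6.42% had every siRNA array above the Control array of its slide, and nothing is read from this for Gadd45g.

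For Gadd45a the differences within slides were 0.29, 0.20 and -0.01 on slides 1, 2 and 3 with siRNA 1, and 0.07 and 0.03 on slides 1 and 3 with siRNA 2. For Gadd45b they were 0.69, -0.22 and 0.02 with siRNA 1 and 0.34 and -0.24 with siRNA 2, on the same slides. Gadd45b thus changed sign between slides in both siRNA groups. For the brighter Gadd45gip1 probe they were -0.25, -0.004 and 0.01 with siRNA 1 and -0.13 and 0.04 with siRNA 2.

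**Figure D2:**
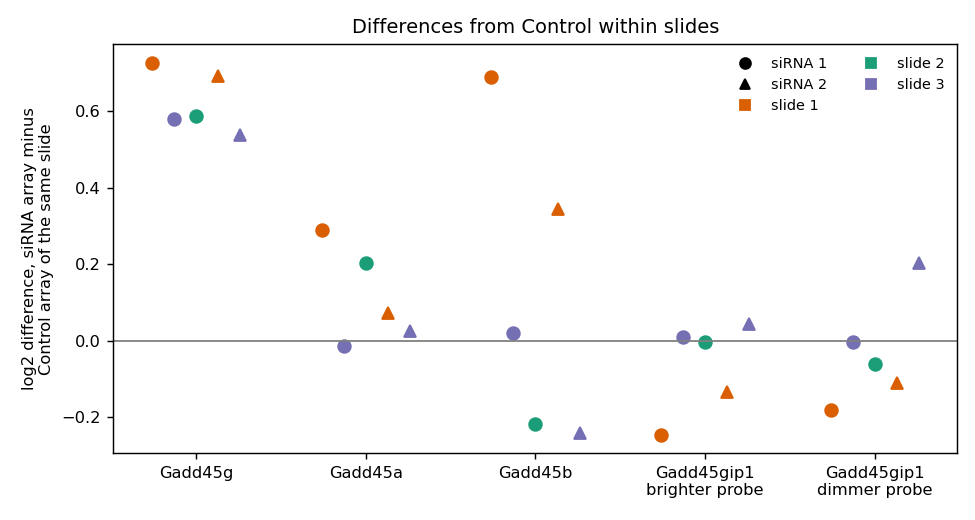
Log2 level of each siRNA array minus that of the Control array on the same slide (y axis) for the 5 family probes, with circles for siRNA 1, triangles for siRNA 2 and colours for slides. The Gadd45g points run between 0.54 and 0.73, the Gadd45b points between -0.24 and 0.69 on both sides of 0.

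Slide 1 against the other slides did not use the contrast on which the family was chosen, so it was tested for the members. Gadd45g was 0.09 higher on slide 1 (95% interval -0.09 to 0.26, limma adjusted p = 0.712) and Gadd45a was 0.12 higher (-0.11 to 0.34, limma adjusted p = 0.697). Gadd45b stood at -0.12 (-0.52 to 0.27, limma adjusted p = 0.841) and Gadd45gip1 at 0.03 (-0.17 to 0.24, limma adjusted p = 0.928). None of the 4 genes passed the threshold for slide 1, beside 5.93% of all genes, so the count says little about the members. The intervals leave room for slide differences of up to 0.26 for Gadd45g. With no background correction the Gadd45g difference was itself 0.25.

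The siRNAs against CnAb1 were also set against each other, which did not use the Control arrays. Limma called 0% of the 22435 genes in this comparison, where 754 genes had p under 0.05 before adjustment and the lowest adjusted value was 0.545. The Gadd45g levels overlapped between the siRNAs, and siRNA 2 minus siRNA 1 was -0.02 (95% interval -0.24 to 0.19, limma adjusted p = 0.999964). Both siRNA groups stood above Control for Gadd45g, and they had no settled order between them: the sign of their difference turned with median scaling, with array weights and without siRNA 1 replicate 1 or siRNA 2 replicate 2. Gadd45a differed by -0.12 (-0.41 to 0.17) and the brighter Gadd45gip1 probe by 0.09 (-0.15 to 0.33), each with a limma adjusted p of 0.999964, and in both the siRNA groups overlapped.

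Gadd45b was lower on both siRNA 2 arrays than on all 3 siRNA 1 arrays, with a difference of -0.27 (95% interval -0.75 to 0.20, limma adjusted p = 0.999964). Such a separation downward was seen for 11.8% of all genes, so it is a common pattern in these arrays. The dimmer Gadd45gip1 probe was higher on both siRNA 2 arrays than on all siRNA 1 arrays, by 0.20 (-0.10 to 0.50, limma adjusted p = 0.999965), and 7.25% of all genes separated that way. Of these intervals only that of Gadd45b held a difference as large in size as that of Gadd45g from Control.

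Among all genes the differences from Control were narrow, with 5% of genes below -0.24 and 5% above 0.25 for both siRNAs. Gadd45g was passed by 115 of the other genes in its difference for both siRNAs, by 190 for siRNA 1 and by 126 for siRNA 2. Those ranks describe the values that led to its choice. Gadd45a was passed by 4610 genes, Gadd45b by 9554 and Gadd45gip1 by 14604, so these members lay in the body of the distribution. Limma called 0% of genes at an adjusted p under 0.05 in each comparison with Control, with 804 genes at an unadjusted p under 0.05 for both siRNAs, 784 for siRNA 1 and 751 for siRNA 2. The family thus had 0 of 4 genes called, as had the array as a whole. Array weights by REML, a setting added after seeing the data that gave Control replicate 3 a weight of 5.6, called 21 genes for both siRNAs.

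**Figure D3:**
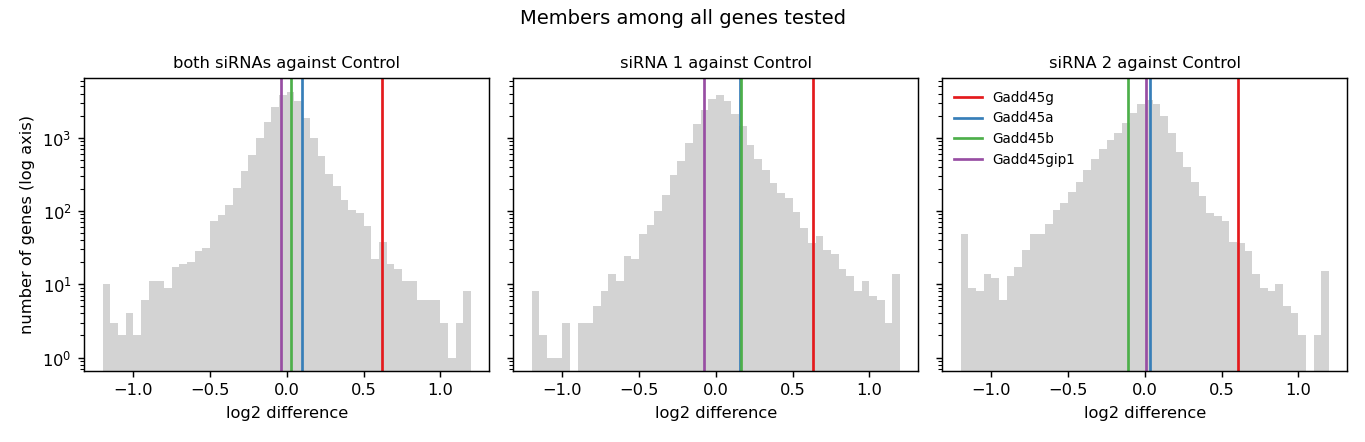
Number of genes (y axis, log scale) by log2 difference from Control (x axis) over 22435 genes, for both siRNAs, siRNA 1 and siRNA 2, with lines at the 4 family genes. Genes beyond the axis are held in the outermost bars. Gadd45g stands at 0.62, 0.63 and 0.61 in the upper tail, and the other members lie between -0.11 and 0.16.

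The partners and inputs of the family were described next, in lists that were drawn up with earlier results of these arrays known. No gene of any list was called, and unless stated limma's adjusted p was 0.999945 for each gene named. The median difference over all genes was 0.007 for both siRNAs, against which the list medians are read. In the kinase cascade that Gadd45 proteins feed, 8 of 17 genes were higher and 9 lower (median -0.02). Map3k4, the kinase that the family activates, was at 3.51 ± 0.01 with siRNA 1, 3.53 ± 0.02 with siRNA 2 and 3.48 ± 0.09 in Control, a difference of 0.04 ± 0.069 (SE). Mapk10, the neuronal JNK, was 0.31 higher at an unadjusted limma p of 0.0194, the smallest of this list, and its other probe was not well above background on any array. Mapkapk2, a kinase downstream of p38, was at -0.09.

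Of the 10 cell cycle partners, 3 were higher and 7 lower (median -0.03). Pcna, the replication clamp that binds Gadd45 proteins, was at 0.03 and Cdk1, the mitotic kinase they inhibit, at -0.06, while its other probes gave 0.08 and -0.26. Cdkn1a, which encodes p21, stood at -0.29 ± 0.167 (SE) and at -0.25 by its other probe, with siRNA arrays between 1.30 and 1.70 against Control arrays between 1.49 and 2.14. Those ranges overlapped. Npm1, a nucleolar chaperone that binds Gadd45a, was at 0.14, and its other probes gave 0.21, 0.11 and -0.01.

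Of 24 p53 pathway genes measured, 17 were higher and 7 lower (median 0.02), and 0 had an unadjusted limma p under 0.05. Trp53 itself was at -0.03 ± 0.128 (SE), Mdm2, the ubiquitin ligase that p53 induces, at 0.10 and Pmaip1, the apoptosis gene Noxa, at -0.14. Among regulators of Gadd45a, 4 of 9 were higher and 5 lower (median -0.04), with the transcription factor Foxo1 at -0.10 and the immediate early gene Egr1 at -0.24. Of 12 genes of the NF-κB and TGF-β inputs to Gadd45b, 8 were higher and 4 lower (median 0.01). Nfkb1, a subunit of NF-κB, was at -0.15 (-0.01 by its other probe).

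Of 8 other growth arrest and DNA damage inducible genes measured, 5 were higher and 3 lower (median 0.05). Ddit3 (GADD153, the stress factor CHOP) was at 0.11 and Ppp1r15a (GADD34, which directs dephosphorylation of eIF2α) at -0.08. Atf3, a stress-induced transcription factor, was at -0.34 ± 0.106 (SE, limma unadjusted p = 0.0144), with -0.19 for siRNA 1 and -0.49 for siRNA 2. Atf4, the translationally controlled stress factor, was at -0.13. The 4 genes of the list not named by the rule, Ddit4, Trib3, Asns and Chac1, were higher by 0.04 to 0.14, and no gene of the list passed the test.

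Of 14 excision repair and demethylation partners measured, 6 were higher and 8 lower (median -0.004), with the base excision nuclease Apex1 at -0.08 and the dioxygenase Tet2 at 0.25 (0.10 by its other probe). The mitochondrial large ribosomal subunit, to which Gadd45gip1 belongs, had 29 of 47 genes higher and 18 lower (median 0.01), in a range of -0.13 to 0.16. Mrpl39 at 0.16 and Mrpl42 at 0.10 had its smallest p. Gadd45gip1, at -0.03, lay inside that range.

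Proneural and Notch pathway genes had a median of 0.09, with 8 of 15 measured genes higher and 7 lower. An unadjusted limma p under 0.05 was seen for 3 of them, against 804 of all 22435 genes: Insm1 and Hes6 were higher, and the receptor Notch3, at -0.23, was lower. Insm1, a zinc finger factor of neuroendocrine and neural progenitors, was at -0.29 ± 0.18 (SD) with siRNA 1, 0.13 ± 0.14 with siRNA 2 and -1.06 ± 0.05 in Control. Its difference from Control for both siRNAs was 0.98 ± 0.101 (SE, limma adjusted p = 0.328). Hes6, a partner of proneural factors that opposes Hes1, was higher by 0.30 ± 0.063 (SE, limma adjusted p = 0.866), with all 5 siRNA arrays between 3.30 and 3.42 and the Control arrays between 3.01 and 3.11. The list was drawn up with Insm1 known to be high, so neither its median nor its count of small p-values is independent of that gene, and nothing is read from them.

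**Figure D4:**
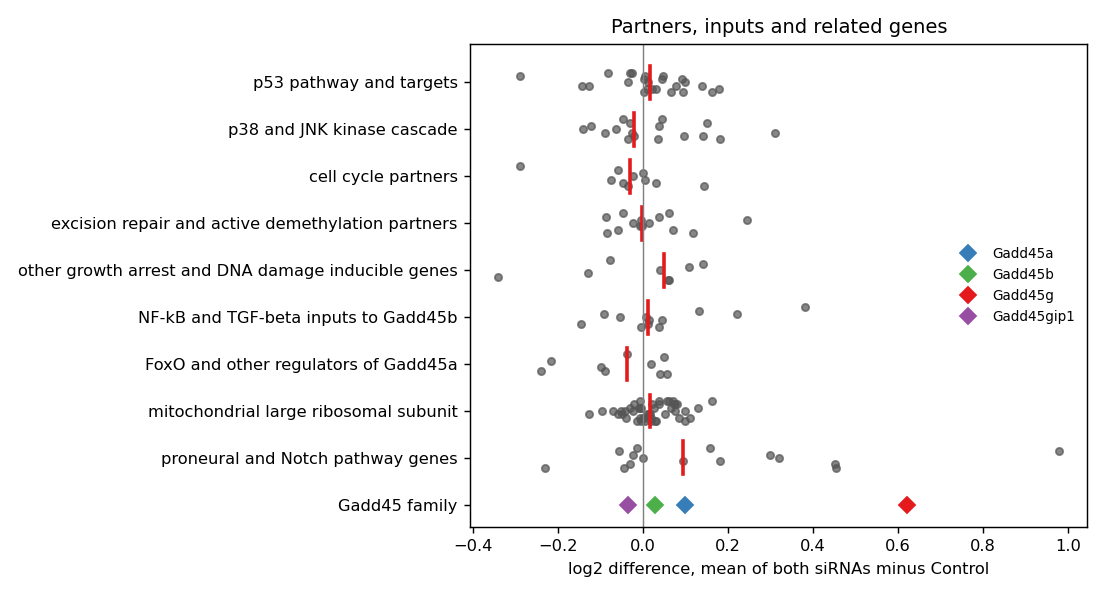
Log2 difference of the mean of both siRNAs from Control (x axis) for each measured gene of 9 lists (grey points), with list medians as red bars, and the 4 family genes as diamonds in the lowest line. Gadd45g at 0.62 lies to the right of every grey point but that of Insm1 at 0.98.

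No marker of another cell type was called, and with siRNA 1 the summed level of every marker list overlapped Control. Each sum is weighted to its brightest genes, such as Vim among the fibroblast markers, and can hide differences of dimmer ones. The summed level of the 6 mesoderm and primitive streak markers was 2.02 to 3.18 times the 75th percentile with siRNA 1, 1.99 to 2.08 with siRNA 2 and 2.87 to 4.16 in Control. That of the 8 extraembryonic endoderm markers was 4.87 to 7.96 with siRNA 1, 2.95 to 3.00 with siRNA 2 and 4.53 to 9.36 in Control. In both of these lists siRNA 2 lay below all Control arrays, whereas in the lists that follow the siRNA 2 arrays overlapped Control. How many single genes lay below Control on both siRNA 2 arrays was not counted. Above Control it was 8.74% of all genes. That is a share of single genes in the other direction, so it is no measure of how common such lower sums are. The summed level of the 4 neuroectoderm markers was 1.76 to 2.89 with siRNA 1, 1.92 to 3.45 with siRNA 2 and 2.08 to 3.80 in Control, and that of the 7 fibroblast markers was 8.38 to 10.71 with siRNA 1, 9.29 to 9.86 with siRNA 2 and 8.83 to 9.43 in Control. The pluripotency sum was 158 to 198 with siRNA 1, 160 to 175 with siRNA 2 and 145 to 168 in Control, and the epiblast sum was 203 to 231 with siRNA 1, 208 to 248 with siRNA 2 and 207 to 224 in Control. Mixl1, Mesp1, Afp, Apoa1 and Fap were not well above background on every array, and no listed marker was absent from all 8. The part of the lower siRNA 2 sums in the level of Gadd45g was not tested.

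Across the 8 arrays the genes most like each member were found by Pearson r among 14899 named genes well above background on all arrays. The r values share array scaling and slide, and for Gadd45g they include the difference between groups. For Gadd45g these were Dclk3, a doublecortin-like kinase (r = 0.981), Mfap5, a microfibril glycoprotein (0.968), Tcf15, a basic helix-loop-helix factor of paraxial mesoderm (0.960), Calml4, a calmodulin-like protein (0.958), and Fam183b (0.952), against a 99th percentile of 0.840. Their differences from Control for both siRNAs were 0.54 for Dclk3, 0.65 for Mfap5, 0.43 for Tcf15, 0.98 for Calml4 and 0.46 for Fam183b. Each was lower in all 3 Control arrays than in every siRNA array, as were 2.43% of all genes. Because they were picked for their likeness to Gadd45g on these same arrays, nothing is read from that separation.

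**Figure D5:**
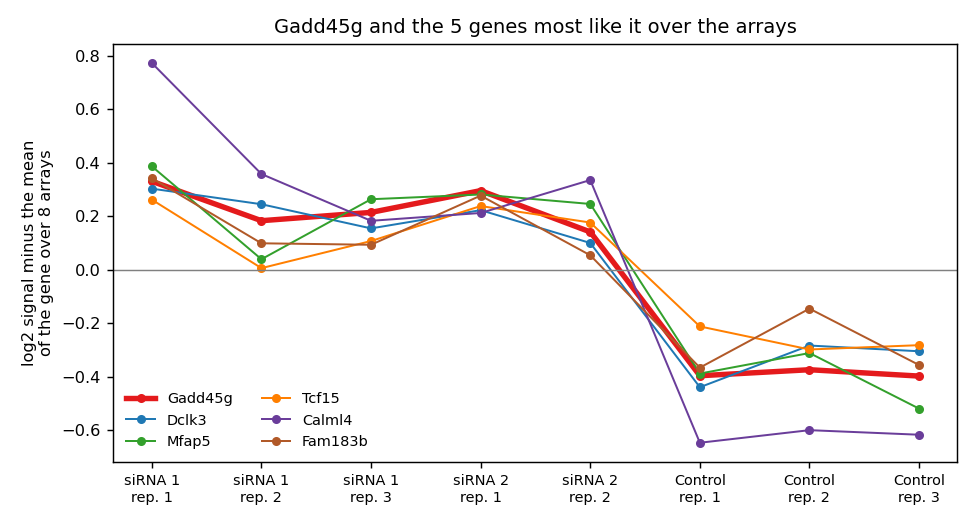
Log2 level minus the gene's mean over 8 arrays (y axis) on each siRNA 1, siRNA 2 and Control array (x axis) for Gadd45g (thick red line) and the 5 genes with the highest Pearson r to it. All 6 lines are below 0 on the 3 Control arrays and above 0 on the 5 siRNA arrays.

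For Gadd45a they were Zfp119a (r = 0.966), Tfg, Cdc26, Ifitm5 and Mbip (0.951), and their differences from Control lay between 0.04 and 0.10. For Gadd45b they were Ap5z1 (0.986), Cfap69, Fndc1, Bfar and Gm5935 (0.960), with differences between -0.02 and 0.08. Like Gadd45b, each of these 5 genes was lower on both siRNA 2 arrays than on all 3 siRNA 1 arrays, as were 11.8% of all genes. Because they were picked for their likeness to Gadd45b on these same arrays, nothing is read from that order. Gm5935 stood at 0.23 with siRNA 1 and -0.07 with siRNA 2 relative to Control. For Gadd45gip1 they were Hmox2 (0.984), Gfus, Cpd, Efr3a and AI837181 (0.966), with differences between -0.11 and -0.02. Among the members themselves, r was 0.54 between Gadd45a and Gadd45g, 0.38 between Gadd45a and Gadd45b and 0.19 between Gadd45b and Gadd45g. Gadd45gip1 ran the other way, with r = -0.92 to Gadd45b, -0.64 to Gadd45a and -0.34 to Gadd45g, and Control replicate 1 held both the lowest Gadd45b and the highest Gadd45gip1 value.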

How the data were processed

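The authors deposited 1-colour (Cy3) Agilent scanner files with intensity values per spot, which Feature Extraction 10.7.3.1 had corrected for background per the file headers. Their deposited log2 table had the scanner values less the 75th percentile, centred per probe on the median (r of at least 0.9998, column medians -0.04 to 0.02), except that the columns of Control 2 and Control 3 matched one another's array. RMA is listed without a role in the submitters' processing notes.

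Levels were log2 processed signal less log2 of its 75th percentile on that array, over spots other than controls. The percentile was taken over probe means at first and over all spots after values had been seen. Outlier spots were left out, spots of a probe averaged, and a gene was read by its brightest probe and kept where that probe was well above background throughout 1 group or more. Of 39429 probes, 26424 had a symbol and 13005 were unnamed. Groups came from sample titles and slides from file headers. Limma 3.58.1 (R 4.3.3) fitted the 3 groups together (5 residual and 2.09 prior degrees of freedom), with Benjamini-Hochberg adjustment over all genes at 0.05. The spread behind each p-value is that between these samples and may be technical. Precision is limited by how many arrays there are.

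The members and lists were chosen with earlier results of these data known. Named genes were the members, Map3k4, Cdkn1a, Pcna, Cdk1, Trp53, Mdm2, Ddit3, Ppp1r15a, the 2 genes of smallest p in each list and, for each member, the 5 genes of highest r. A gene that this rule names is not reported here. Notch3, Ttr, Acta2, Vim, Ddit4, Trib3, Asns and Chac1 were named after their values were seen. Alternatives covered scaling, background correction (normexp, offset 50, on the median spot signal because the files give no mean), the deposited table, filters, probe choice, groups in the fit, variance model, array weights, blocks, slide 1 and each array left out. Array weights by REML (statmod 1.5.0) and the dimmer Gadd45gip1 probe were added after seeing the data. The fit was tested on simulated data. Promoters are RefSeq's; Gadd45gip1 had no entry.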

Additional observations from a re-analysis of the deposited data

Results flagged for a closer look

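Gadd45b stood out because the siRNA groups lay on opposite sides of the Control mean: all 3 siRNA 1 arrays (-1.03, -1.21 and -1.21) were above the mean of the Control arrays, -1.31, and both siRNA 2 arrays (-1.37 and -1.48) were below it. The log2 difference of siRNA 2 against siRNA 1 was -0.275, and limma's adjusted p for it was 0.999964. The Control mean rested on arrays at -1.72, -0.99 and -1.24, whose range enclosed every siRNA array, and the pattern depended on single Control arrays. Without Control replicate 1 the difference from Control was -0.04 with siRNA 1 and -0.31 with siRNA 2, both below. Without Control replicate 2 it was 0.33 with siRNA 1 and 0.05 with siRNA 2, both above. Without the arrays of slide 1 it was -0.10 with siRNA 1 and -0.36 with siRNA 2.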

How the results depend on the processing

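The difference of Gadd45g for both siRNAs lay between 0.56 and 0.62 over 14 alternatives and between 0.58 and 0.66 with each array left out, and for siRNA 1 and siRNA 2 alone it stayed between 0.53 and 0.69 over all of them. Gadd45a for both siRNAs stayed between 0.04 and 0.15. Gadd45b for both siRNAs moved to -0.23 without the arrays of slide 1, and between -0.17 and 0.19 with each array left out. Limma called 0 genes for both siRNAs against Control except with array weights estimated by REML, which gave 21, of which 19 were higher. Gadd45g was among them, in a contrast that had been used to choose it. Control replicate 3 then had a weight of 5.6, and default array weights called 0 (smallest adjusted p 0.0563). For siRNA 2 against Control 1 gene was called without siRNA 2 replicate 2, where siRNA 2 is a lone array assumed to vary like the other groups. For siRNA 2 against siRNA 1, 1 gene was called with only those groups in the fit. No family gene was called there. For slide 1, 2051 genes were called with array weights, and 798 to 1255 with each array left out.

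Differences near 0 changed sign. Against Control, Gadd45gip1 for both siRNAs ranged from -0.09 to 0.05, Gadd45a with siRNA 2 was -0.034 under normexp, Gadd45b with siRNA 1 was -0.10 without the arrays of slide 1 and Gadd45b with siRNA 2 was 0.05 without Control replicate 2. Gadd45g for siRNA 2 against siRNA 1 was 0.053 with median scaling, 0.0071 with array weights and 0.0079 by REML, and ran from -0.10 to 0.053 with each array left out. For slide 1, Gadd45a was -0.093 under normexp and -0.086 with no background correction, and Gadd45b was 0.013 with median scaling and 0.066 with array weights (-0.30 to 0.15 with each array left out). Gadd45gip1 for slide 1 was -0.054 under normexp, -0.039 with no background correction and -0.039 with array weights (-0.055 to 0.088 with each array left out). The cause of these changes was not tested.

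As labelled, same-numbered arrays did not always share a slide. Deviations from group means correlated at 0.327, 0.0102 and 0.0499 for numbers 1, 2 and 3 of Control and siRNA 1. For numbers 1 and 2 of siRNA 1 and siRNA 2, which shared slides, r was 0.698 and 0.634. Control replicate 3 correlated at 0.562 and 0.554 with replicate 2 of siRNA 1 and of siRNA 2, on slide 3. With only replicates 1 and 2, the siRNA 2 deviations mirror each other, and Control replicate 3 stood at -0.555 to siRNA 2 replicate 1. The r values of siRNA 2 therefore cannot tell likeness to slide 3 from unlikeness to slide 1, or the reverse. Control replicate 2 and siRNA 1 replicate 3, on slide 2, correlated at 0.044. If Control 2 and Control 3 were exchanged, as the deposited columns are, same-numbered arrays would share a slide. Which labels hold was not tested. With the replicate block the Gadd45g difference for both siRNAs was 0.62 and 0 genes were called, and with the slide as a block it was 0.62 and 0 genes were called.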

Other observations

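Marker genes named by the same rule stood as follows for both siRNAs against Control, each with a limma adjusted p of 0.999945 unless stated. Of the mesoderm and primitive streak markers, 4 of 4 measured genes were lower (median -0.68), with Eomes at -0.62 (-0.77 by its other probe) and Evx1 at -1.17, both transcription factors of the primitive streak. Of the extraembryonic endoderm markers, 7 of 7 measured genes were lower (median -0.72), among them the endocytic receptor Cubn at -0.83 (-0.80 by its other probe). That average joins unlike values: with siRNA 1, 2 of 7 were higher (median -0.27), among them the plasma transport protein Ttr at 0.89, and with siRNA 2, 0 of 7 were higher (median -1.21), with Ttr at -1.82. No gene of the list was called by limma for siRNA 2 against siRNA 1 or against Control. An unadjusted limma p under 0.05 was seen for 4 of its 7 genes against siRNA 1, beside 754 of all 22435 genes. Against Control it was seen for 6 of the 7, beside 751 of all genes. The list was drawn up with earlier results of these arrays known, so nothing is read from these counts. Afp was well above background on 6 arrays only. For pluripotency markers 4 of 6 were higher (median 0.14), with Nanog at 0.23 and Tdgf1, a Nodal co-receptor, at -0.18. For epiblast markers 3 of 4 were higher (median 0.04), with Pou3f1 at 0.21 and Fgf5 at -0.08, and for neuroectoderm markers 4 of 4 were lower (median -0.12), with Nes at -0.20 and Zic1 at -0.15. Of 7 fibroblast markers, 2 were higher and 5 lower (median -0.16). Col6a1, a collagen VI chain, was at -0.67 (limma adjusted p = 0.680) and Acta2 at -0.52 (limma adjusted p = 0.973). Fap was at -1.34 (limma adjusted p = 0.772) but was well above background on 3 arrays only. Col6a1, Acta2 and Fap were each lower on every siRNA array than on every Control array, as were Tdgf1, Pmaip1 and Notch3 of other lists. The share of all genes that separated downward was not counted, so nothing is read from this. Upward it was 2.43%.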
